A study of Rattus norvegicus with 4 samples.

Results

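Short single-block transcripts of the NONCODE catalogue were examined in primary heart muscle cells of newborn rats kept in normal or high glucose. A transcript was included where its identifier began with NONRATT (the rat prefix of that catalogue), where it was listed for the normal glucose library at 24 h with a length from 200 to under 2000 nt, where its span on the genome exceeded its length by at most 15 nt, and where its mean over the 4 libraries was at least 1 FPKM (reads divided by transcript length and library total, taken as 0 where a library did not list it). This gave 2812 transcripts of the 17934 listed in at least 1 library, which is 15.7% of them. A span as long as the transcript leaves no room for an intron, and span and length were equal in 2806 of the 2812; in the other 6 the span was 5 to 12 nt longer.

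Cardiomyocytes came from Sprague-Dawley rats aged 1 to 2 days and were grown in M199 medium that held 2 mM carnitine, 5 mM creatine and 5 mM taurine in every group. High glucose medium held 33 mmol/l glucose. Normal glucose medium held 5 mmol/l glucose with 28 mmol/l mannitol, a sugar alcohol that cells hardly take up and that balances osmotic strength. Each medium was sampled at 24 h and 48 h with 1 library per group, 4 libraries in all. In this design high glucose serves to provoke oxidative stress and programmed cell death. No batch is labelled, nor which cultures or animals a library came from, so nothing measures the spread between replicates of a group. The tables hold non-coding transcripts with no gene names, so markers of cardiomyocytes or of other heart cells were not analysed here and the cell type rests on the labels. In bulk libraries fewer cells of a type and less RNA per cell cannot be told apart.

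NONCODE is a database that collects long non-coding RNAs, RNAs longer than the small RNA classes that are not known to be translated into protein. Many well-studied ones, like messenger RNAs, are spliced from several exons. Single-exon entries are a mixed group: they include independent unspliced genes, RNAs made at enhancers, pieces of longer transcripts such as introns or untranslated ends, and reads from the opposite strand of known genes, and a catalogue entry alone does not say which of these it is. The identifiers are not paired with gene names in the tables, and 0 of the 2812 matched a name in the reference gene table used here (RefSeq, another rat assembly). Names here are therefore identifiers with positions in the rat build rn6, and whether a protein-coding gene lies over or near them was not analysed here.

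Read totals recovered from count, length and FPKM were 11877876 in normal and 15654183 in high glucose at 24 h, and 14855792 and 14225322 at 48 h. A single read was worth between 0.0639 and 0.0842 CPM (reads scaled to the library total alone), and the limit that a count of 0 allows, 3 reads, between 0.192 and 0.253 CPM. The short single-block transcripts held between 206144 and 268402 reads per library, which was 24.3% to 24.96% of the reads on all listed non-coding transcripts. Their share of the recovered total was 1.74% (95% Wilson interval 1.73 to 1.74) and 1.69% (1.68 to 1.69) in normal and high glucose at 24 h, and 1.81% (1.80 to 1.81) and 1.55% (1.55 to 1.56) at 48 h. High glucose at 48 h was the lowest of the 4 libraries in this share and also in the median level, which was 3.01, 2.87, 3.07 and 2.59 FPKM in the same order. The ranking of the share depended on the scaling. With library totals adjusted by TMM factors, a choice made after the data were seen, the shares were 1.67%, 1.68%, 1.73% and 1.7%. These factors set near 0 the common shift of all non-coding transcripts with a mean of at least 1 FPKM and at least 200 nt. The short single-block transcripts are 38.4% of those, so the factors themselves draw the adjusted shares together in part. The adjusted shares are thus no independent check of the ranking. With TMM factors the medians were 2.89, 2.85, 2.93 and 2.83 FPKM, so high glucose at 48 h stayed lowest in the median, by a smaller gap. With 1 library in each group, whether a gap of that size exceeds the spread between cultures is not known, and intervals here cover counting error only.

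The median level rose from each length class to the next, while the highest single levels lay among the short transcripts. The 4 length classes, from 200 to under 500, from 500 to under 1000, from 1000 to under 1500 and from 1500 to under 2000 nt, held 514, 1276, 629 and 393 transcripts. Their median levels over the 4 libraries were 2.23, 2.59, 3.55 and 4.61 FPKM. Among single-block NONCODE transcripts of these lengths, 6987 were listed for the normal glucose library at 24 h at any level. Of these, 40.2% reached the mean of 1 FPKM, and by class the share was 27.7%, 36.6%, 59.3% and 67.2%. Levels of 100 FPKM or more occurred in 7 transcripts of the shortest class, in 6 of the next and in 0 of the other two. The minimum itself asks for fewer reads of a short transcript, and the median mean count was 12.5, 26.25, 60.75 and 113.5 reads by class. In the shortest class 208 of 514 transcripts (40.5%) averaged fewer than 10 reads, against 49 of 1276 in the next class and 0 in the other two.

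**Figure D1:**
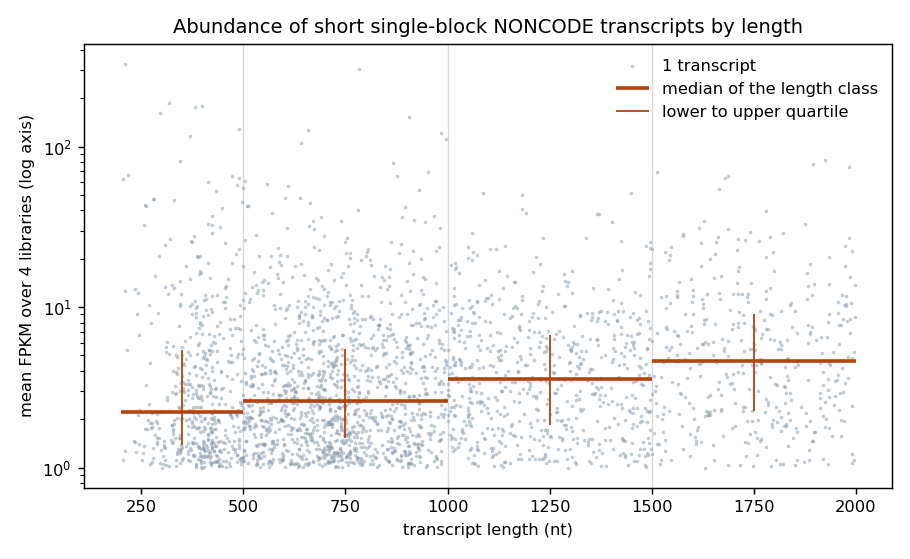
Mean FPKM over the 4 libraries (y axis, log scale) against transcript length in nt (x axis), with 1 point per transcript and, for each length class, a thick line at the median and a thin line from the lower to the upper quartile. The medians step up from 2.23 FPKM in the shortest class to 4.61 FPKM in the longest, while the 13 points at or above 100 FPKM all lie under 1000 nt.

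The rule's limits cut through a continuous range. The transcripts just inside the FPKM minimum averaged 1.0007 FPKM (NONRATT014553.2, 22.75 reads on average) and 1.0008 FPKM (NONRATT011581.2, 5.75 reads), and the nearest ones left out averaged 0.998 FPKM with 10.25 and 5.50 reads. The longest one included measured 1999 nt and the nearest one left out 2000 nt. Just beyond the span limit lay a transcript with a length of 1053 nt and a span of 1071 nt.

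The most abundant was NONRATT019765.2, 210 nt at chr3:143223269-143223478, with 299.9, 321, 319.6 and 364 FPKM in normal 24 h, high 24 h, normal 48 h and high 48 h, the order used for every set of 4 values from here on. NONRATT025661.2, 784 nt at chr7:24216146-24216929, followed with 285, 322, 277 and 327 FPKM and had the most reads of any, 2651, 3953, 3226 and 3649. Neither crossed 2-fold between any pair of libraries, and both were a little higher in high than in normal glucose at each time. NONRATT008607.2, 398 nt at chr13:14315636-14316033, had 199, 209, 215 and 97.5 FPKM. Its level in high glucose at 48 h stood apart, 2.21-fold below normal glucose at that time (95% counting interval 2.00 to 2.45). The same library stood lowest for NONRATT002642.2, 905 nt at chr1:101449124-101450028, with 139, 240, 170 and 67.2 FPKM. That transcript was highest in high glucose at 24 h and 2.53-fold below normal glucose at 48 h (2.33 to 2.73). Among those of 1500 nt or more the highest was NONRATT001111.2, 1925 nt at chr1:177170505-177172429, with 83.4, 69.5, 115 and 63.7 FPKM. NONRATT016844.2, 1983 nt at chr2:227292193-227294175, was nearly level at 78.4, 66.9, 77.8 and 77.2 FPKM. The reads were not dominated by these few, since the 10 with the most reads held 8.02% to 9.08% of the group's reads per library and the top 100 held 31.3% to 32.1%.

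The first question was which of these transcripts differed between high and normal glucose at 24 h. Ratios were taken on log2(FPKM + 1), a scale that shrinks differences between low values, and a transcript was called where the ratio was at least 2-fold and the exact 95% counting interval of the read ratio excluded 1. Such a call compares 2 libraries, not the media. Of the 2812, 49 were called higher and 63 lower in high glucose, 3.98% together, against 5.97% of all 7321 measured transcripts (2.85% higher, 3.11% lower). The measured transcripts are all those with a mean of at least 1 FPKM and a length of at least 200 nt, spliced and longer ones included. The median log2 ratio of the short single-block transcripts was -0.04, and that of all measured transcripts was also -0.04. The share called was thus below that of all measured transcripts, a difference that was not tested, and the centre of the ratios lay at the same place.

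The largest called difference upward at 24 h was that of NONRATT012360.2, 885 nt at chr17:18441958-18442842, with 0.190, 19.1, 16.9 and 0.159 FPKM. Its reads were 2, 264, 222 and 2, a ratio of 100.2 at 24 h (27.5 to 831). NONRATT022625.2, 972 nt at chr5:144334170-144335141, had 4, 310, 472 and 45 reads, a ratio of 58.8 (22.7 to 217). In both, normal glucose at 24 h was the low library of that pair while normal glucose at 48 h was high. The largest difference downward was that of NONRATT006444.2, 448 nt at chr11:31813129-31813576, with 55.1, 0.285, 50.2 and 60.3 FPKM. Its reads were 293, 2, 334 and 384, so that the library of high glucose at 24 h alone was low, 193-fold below normal glucose (53.0 to 1602). NONRATT003063.2, described with the test over both times, was next. In the class from 1500 nt the highest called ratio belonged to chr9:89050405-89051947 (NONRATT030230.2), with 8, 498, 7 and 7 reads, and in the shortest class to chr13:51784282-51784634 (NONRATT008735.2), with 1, 66, 1 and 1 reads. Both were high in 1 library only.

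At 48 h more transcripts were called. In high glucose 63 were higher and 133 lower, 6.97% together, against 8.89% of all measured transcripts (3.28% higher, 5.61% lower). The median log2 ratio was -0.17 for the short single-block transcripts and -0.15 for all measured ones, so most of the downward shift was shared by the whole table. With TMM factors, which set that common shift near 0 (median of all measured transcripts -0.01), 87 were called higher and 93 lower, 6.40% together, against 8.71% of all measured transcripts, and the median of the short single-block transcripts was -0.03. Calls upward were thus 32.1% of all calls on the recovered totals and 48.3% with TMM factors. The excess of lower over higher calls at 48 h therefore depended on the scaling.

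The largest called difference upward at 48 h was that of NONRATT016668.2, 797 nt at chr2:197887692-197888488, with 0.211, 0.160, 0.253 and 22.0 FPKM. Its reads were 2, 2, 3 and 249, a ratio of 86.7 (29.3 to 423), with high glucose at 48 h the only high library. NONRATT005089.2, 715 nt at chr10:105564510-105565224, had 9.77, 23.6, 1.22 and 39.5 FPKM. High glucose was above normal glucose at both times, by ratios of 2.41 (1.88 to 3.13) and 32.3 (18.7 to 61.2), and the second ratio rested in part on a low value in normal glucose at 48 h. Downward, NONRATT024810.2, 642 nt at chr6:11067659-11068300, had 146, 123, 151 and 0.438 FPKM. Its reads were 1117, 1241, 1437 and 4, which put high glucose at 48 h 344-fold below normal glucose (134 to 1264). NONRATT002849.2, 1680 nt at chr1:146069775-146071454, had 2049, 1604, 2246 and 4 reads, 538-fold lower (209.7 to 1975). Both were among the abundant transcripts in 3 libraries and nearly silent in the remaining one. NONRATT024810.2 overlaps a listed spliced transcript, and reads that the 2 share could not be divided, while NONRATT002849.2 overlaps none. The corresponding transcript of the class from 1000 nt was at chr10:103946886-103948314 (NONRATT006276.2), with 197, 52, 496 and 7 reads, lower in high glucose at both times.

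How the calls were spread over length depended on the scale of the ratio. On log2(FPKM + 1), at 24 h the share called was 4.28%, 4.08%, 3.82% and 3.56% from the shortest to the longest class. At 48 h it was 9.92%, 6.50%, 6.20% and 5.85%, and the shortest class held 14 higher and 37 lower against 11 higher and 12 lower in the longest. On that scale, among those that averaged 30 to 99 reads the shares at 48 h were 16.3% of 92, 7.62% of 407, 6.94% of 288 and 7.19% of 153. With TMM factors, an alternative chosen after the data were seen, the shares by class were 8.37%, 5.88%, 5.88% and 6.36%, all below the 8.71% of all measured transcripts, and the shortest class had 23 calls up and 20 down. On log2(CPM + 1), which does not divide by length, the order turned: the shares at 48 h were 5.25%, 5.25%, 6.52% and 6.62%, against 7.17% of all measured transcripts, and at 24 h they were 2.72%, 3.06%, 3.97% and 4.33%, against 4.89%. No order of the calls by length therefore held on both scales. The summed CPM of each class, high over normal glucose at 48 h on the recovered totals, gave ratios of 0.908, 0.843, 0.860 and 0.860. At 24 h these ratios were 0.976, 0.993, 0.988 and 0.939.

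**Figure D2:**
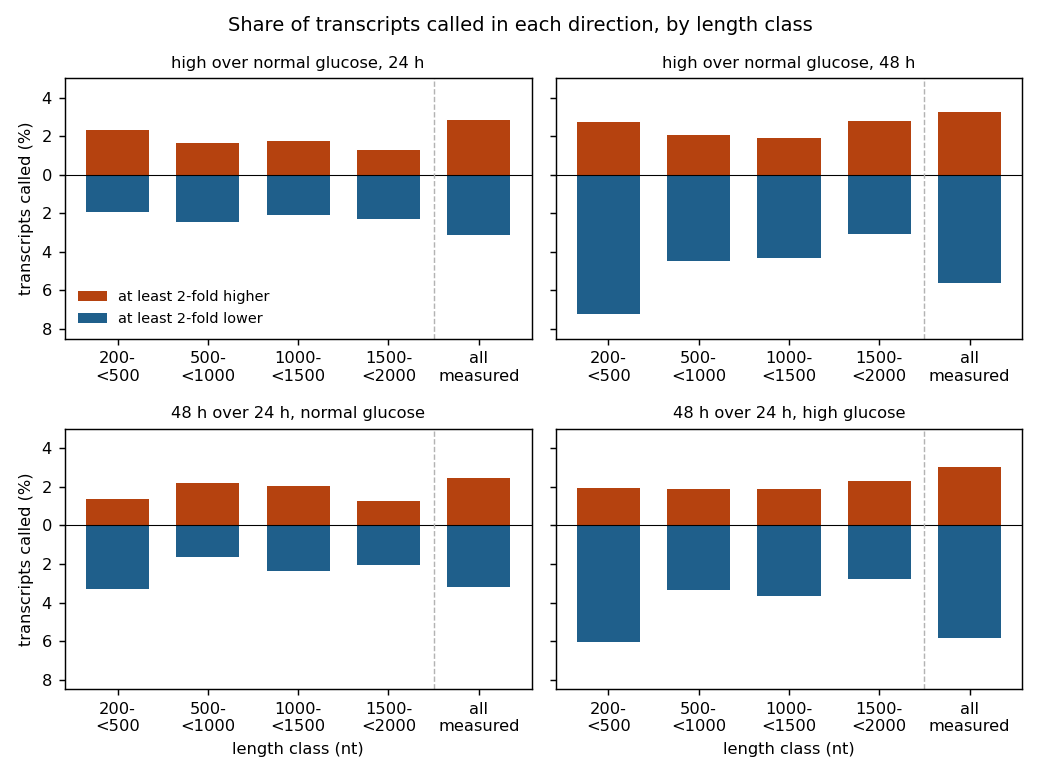
Share of transcripts (y axis, %) called on log2(FPKM + 1) at least 2-fold higher (upward bars) or lower (downward bars), by length class in nt (x axis) with all measured transcripts at the right of the dashed line, for the 4 comparisons of single libraries. The shortest class has the longest downward bar at 48 h against normal glucose (37 of 514 transcripts), and the other classes lie below the bar of all measured transcripts in each panel.

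The second question was the change from 24 h to 48 h within each medium. In normal glucose 53 were called higher and 61 lower at 48 h, 4.05%, against 5.65% of all measured transcripts (2.47% higher, 3.18% lower). In high glucose 55 were called higher and 108 lower, 5.80%, against 8.89% (3.05% higher, 5.85% lower). The median log2 ratio was 0.03 in normal and -0.09 in high glucose, and those of all measured transcripts were 0.01 and -0.09. By length the share called was 4.67%, 3.84%, 4.45% and 3.31% in normal glucose and 7.98%, 5.25%, 5.56% and 5.09% in high glucose. On log2(CPM + 1) the shortest class went from the highest share to the lowest, and the shares were 2.53%, 3.13%, 4.61% and 3.31% in normal glucose and 3.5%, 4.15%, 5.72% and 5.85% in high glucose, against 4.67% and 6.91% of all measured transcripts. In the shortest class 10 were higher and 31 lower in high glucose on log2(FPKM + 1), and with TMM factors 11 and 25, where 8.74% of all measured transcripts were called. These comparisons use the same 4 libraries as those between media, so a transcript that is low in 1 library enters a comparison of each kind.

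In normal glucose the largest called difference upward with time was again that of NONRATT022625.2, 94.3-fold (36.6 to 348). NONRATT016014.2, 1888 nt at chr2:29059739-29061626, had 0.490, 0.406, 25.9 and 0.521 FPKM, so it was high in normal glucose at 48 h alone. Its ratio over 24 h was 52.8 (29.3 to 106). Downward, NONRATT026410.2, 449 nt at chr7:4127391-4127839, had 180, 2, 2 and 54 reads, lower with time by a fold of 113 (30.7 to 937). NONRATT015909.2, 1285 nt at chr2:266315013-266316297, had 592, 16, 14 and 7 reads and was high in normal glucose at 24 h alone, 52.9-fold above 48 h (31.3 to 97.3). In high glucose the largest called difference upward was that of NONRATT006444.2, 211-fold (58.1 to 1751), whose low library was high glucose at 24 h. NONRATT030085.2, 857 nt at chr9:67293784-67294640, followed with 3.05, 0.149, 23.1 and 28.1 FPKM. Both media had more at 48 h than at 24 h, by a ratio of 7.58 (5.23 to 11.4) in normal and of 188 (51.7 to 1560.1) in high glucose. The largest differences downward were those of NONRATT024810.2, 282-fold (109.8 to 1036), and NONRATT002849.2, 364-fold (142 to 1339), both low in high glucose at 48 h alone.

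The share called was higher among spliced NONCODE transcripts than among short single-block ones in each of the 4 comparisons. Of the 3654 measured spliced ones 7.17% and 10.0% were called between media at 24 h and 48 h, and 6.49% and 11.3% between times in normal and high glucose. The same order was found at matched read counts. With at least 100 reads on average the shares called between media at 48 h were 7.09% of 621 short single-block and 10.1% of 676 spliced ones, and at a mean of 30 to 99 reads they were 8.19% of 940 and 11.2% of 1031. Single-block NONCODE transcripts of 2000 nt or more, 492 in number, were called in 4.88%, 6.91%, 4.27% and 6.30% of cases. These shares are descriptions of 4 libraries, and no test of the difference between the classes was made.

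Few transcripts repeated their glucose difference. At both times 10 were called higher and 16 lower in high glucose, and 19 were called in opposite directions, against 0.478%, 0.656% and 1.09% of all measured transcripts, where the 2812 gave 0.356%, 0.569% and 0.676%. The glucose ratios at 24 h and 48 h come from separate libraries. They had the same sign in 56.3% of transcripts, with Pearson's r 0.03 and Spearman's rho 0.13 across transcripts, which are not independent replicates. Over all measured transcripts the same sign was found in 54.1%, and rho was 0.07. Of the 2812 ratios 56.2% at 24 h and 67.0% at 48 h lay below 0. Some excess of shared signs arises from these shares alone. Among the 393 transcripts of 1500 nt or more 4 were called lower at both times, 0 higher and 0 in opposite directions, and rho was 0.26. In the shorter classes 3, 10 and 6 were called in opposite directions, and rho was 0.06, 0.13 and 0.11. The longest class also had the most reads. Among the 621 transcripts of any length that averaged at least 100 reads rho was 0.21, so length and read count were not separated here. With 0.676% of the 2812 called in opposite directions, 0 of 393 is near the common share. All 45 transcripts called at both times overlapped no other listed transcript, as did 2383 of the 2812. Those without an overlap were also called more often at 48 h, 7.47% against 4.20%, and this was not tested.

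**Figure D3:**
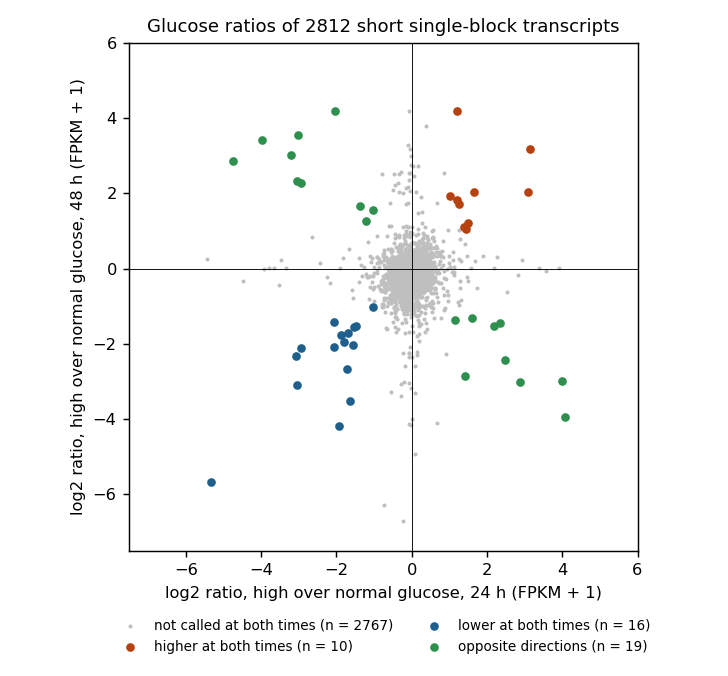
Log2 ratio of high over normal glucose on the FPKM + 1 scale at 24 h (x axis) and at 48 h (y axis), with 1 point per transcript. Coloured points were called at both times, 10 higher, 16 lower and 19 in opposite directions, and the many grey points along the 2 axes had a large ratio at 1 time only.

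The transcript with the most reads behind a repeated difference was NONRATT003063.2, 1742 nt at chr1:176940418-176942159. It had 50.9, 0.293, 66.1 and 0.323 FPKM, from 1054, 8, 1710 and 8 reads. Both normal glucose libraries were high and both high glucose libraries low, 174-fold at 24 h (87.8 to 403) and 205-fold at 48 h (104 to 475). NONRATT023256.2, 470 nt at chr5:74251269-74251738, had the same order with 53, 2, 70 and 2 reads, with folds of 34.9 (9.20 to 296) and 33.5 (8.94 to 282). The reverse order was found in NONRATT027792.2, 422 nt at chr8:70374475-70374896, with 1, 64, 2 and 66 reads. Its ratios were 48.6 at 24 h (8.41 to 1948) and 34.5 at 48 h (9.17 to 291). NONRATT005989.2, 553 nt at chr10:87116826-87117378, had 1, 77, 18 and 95 reads, with ratios of 58.4 (10.2 to 2337) and 5.51 (3.31 to 9.70). In the 3 shorter of these 4 transcripts the low libraries held 1 to 18 reads, so the size of each fold is loosely fixed.

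When the times stood in for replicates, edgeR's quasi-likelihood test with Benjamini-Hochberg adjustment over the 7321 measured transcripts placed 0 of the short single-block transcripts higher and 1 lower in high glucose, against 0.0137% of all measured transcripts, which is this same transcript. It was NONRATT003063.2, with a log2 change of -7.54 and an adjusted p of 0.0252, lower in both pairs of libraries. That call was not stable: its adjusted p stayed under 0.05 in 3 of 11 alternatives, and over them it ran from 1.21e-44 to 0.369 with log2 changes from -7.72 to -5.50. In edgeR's quasi-likelihood test it was 0.0739 with TMM factors. With 1 library left out and the term for time dropped as well, the log2 change ran from -7.72 to -7.35. At an unadjusted p under 0.05, 32 were higher and 65 lower, 3.45% of the 2812, beside 1.73% higher and 3.02% lower among all measured transcripts. The 3.45% is less than the share of 0.05 that such a threshold nominally lets through where nothing differs. With 1 residual degree of freedom it is not known whether the fit keeps to that nominal share. No conclusion is therefore drawn from the 3.45%. With TMM factors the counts were 47 higher and 46 lower (2.27% and 2.1% of all measured transcripts), so the excess of lower transcripts depended on the scaling. NONRATT027792.2 and NONRATT023256.2 both had an adjusted p of 0.238 in the same test. The model left 1 residual degree of freedom, so its spread is the disagreement between the times, borrowed across transcripts.

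For 48 h against 24 h over both media, edgeR's quasi-likelihood test with Benjamini-Hochberg adjustment called 0 of the 2812 and 0% of all measured transcripts. At an unadjusted p under 0.05, 35 were higher and 48 lower, 2.95% of the 2812, against 1.6% and 2.65% of all measured transcripts. The 2.95% is also less than the share of 0.05 that such a threshold nominally lets through. For the same reason as in the test of medium, no conclusion is drawn from it. DESeq2 called 7 higher and 4 lower (0.191% and 0.287% of all measured transcripts), and limma 1 higher and 2 lower (0.0546% and 0.109%). The smallest adjusted p in edgeR's quasi-likelihood test was 0.0787, for NONRATT005478.2, 1753 nt at chr10:45833261-45835013. Its reads were 229, 285, 5 and 4, so both 24 h libraries were high and both 48 h libraries low.

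By the call on single ratios, 10 were higher and 7 lower at 48 h in both media, and 18 changed in opposite directions, beside 0.423%, 0.697% and 0.997% of all measured transcripts, where the 2812 gave 0.356%, 0.249% and 0.640%. NONRATT017731.2, 838 nt at chr20:22790939-22791776, had 4, 3, 230 and 288 reads, with ratios over time of 46.0 in normal (17.7 to 170.2) and 106 in high glucose (35.8 to 515). NONRATT023239.2, 719 nt at chr5:69857734-69858452, had 1, 1, 96 and 172 reads. NONRATT016651.2, 408 nt at chr2:196198306-196198713, went the other way with 95, 115, 3 and 2 reads. NONRATT027756.2, 1601 nt at chr8:63637983-63639583, had 359, 416, 4 and 8 reads, lower with time by folds of 112 in normal (43.5 to 414) and 47.3 in high glucose (23.8 to 110.2). In each of these 4 the 2 libraries of one time lay on one side and the 2 of the other time on the other, with no overlap. They were picked for large calls in the same direction in both media, so this separation adds no support.

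**Figure D4:**
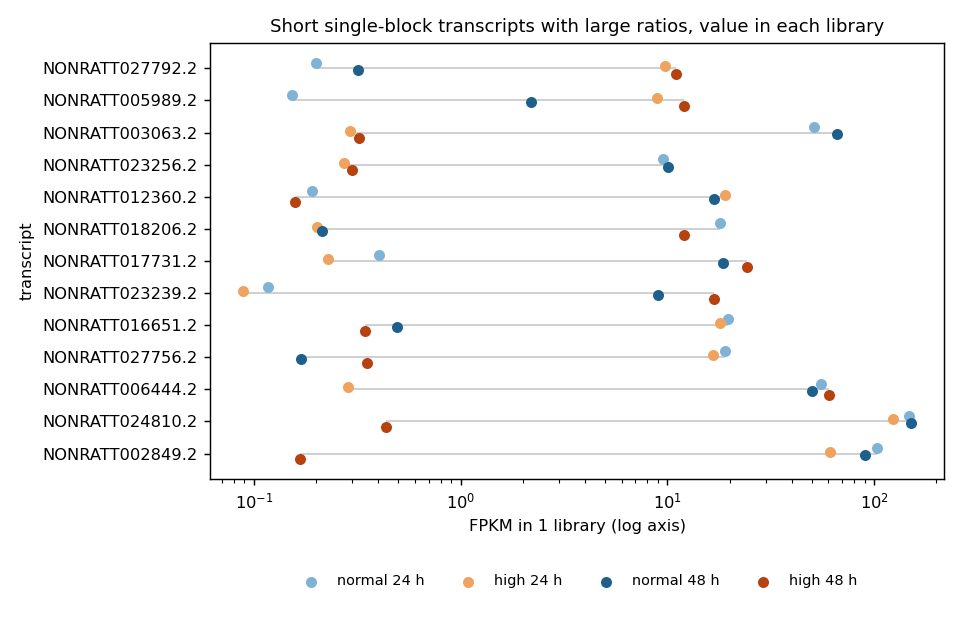
FPKM in each library (x axis, log scale) for 13 short single-block transcripts (y axis), with 1 point per library and a grey line from the lowest to the highest. The top 4 separate by medium, NONRATT012360.2 and NONRATT018206.2 pair 1 library of each medium and time, the next 4 separate by time, and the last 3 have 1 low library each.

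Transcripts of the kind just described, near silence in some libraries and clear expression in others, were counted with a fixed limit. Of the 1126 short single-block transcripts that averaged at least 50 reads, 67 had a highest CPM more than 8 times the lowest, which is 5.95%, against 6.45% of the 2867 measured transcripts with that many reads. The limit of 8 was set with earlier results of these data known. By length the counts were 4 of 87, 20 of 367, 22 of 363 and 21 of 309, or 4.60%, 5.45%, 6.06% and 6.80%. In the 67 the lowest library held a median of 4 reads and 0.265 FPKM (quartiles 0.172 to 0.387), and the highest library a median of 13.4 FPKM. The level in the lowest library was under 1 FPKM in 62 of 67. None of them reached 0 reads in any library, and none of the 26 longer single-block NONCODE transcripts past the same limit did either. Among spliced NONCODE transcripts past that limit, 15 of 78 (19.2%) reached 0 reads in a library. The absence of 0 counts was thus not particular to the short single-block transcripts, and its difference from the spliced ones was not tested.

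The pattern over libraries was split many ways. With a library taken as low where its CPM was more than 8 times below that of the highest library, 36 of the 67 were low in a single library, 11 were high in a single library and 20 were high in 2. Of those low in 1 library, 16 were low in high and 10 in normal glucose at 48 h, and 6 and 4 at 24 h. Of those high in 1 library, 2 were high in high and 6 in normal glucose at 48 h, and 2 and 1 at 24 h. Of the 20 high in 2 libraries, 3 followed the medium, 8 followed the time and 9 followed neither, being high in 1 library of each medium and each time. NONRATT018206.2, 950 nt at chr3:53640655-53641604, is of that last kind with 202, 3, 3 and 162 reads. The minimum mean count asks for more reads per high library where 1 library is high than where 3 are. It therefore favours transcripts low in 1 library over those high in 1, and the numbers of these kinds cannot be compared directly. The limit of 8 also shaped the kinds. NONRATT030883.2, with 21, 18, 23 and 145 reads, was counted as low in high glucose at 24 h alone. Its reads stood apart in high glucose at 48 h. Under these limits most of the 67 stood apart in 1 library, and few were arranged by medium. What set a single library apart for a transcript was not tested, and with 1 library per group a difference of the library and one of the condition cannot be told apart.

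A few transcripts were not listed for a library at all. NONRATT001106.2, 757 nt at chr1:175981027-175981783, had 128 reads in normal glucose at 24 h and was at 0 in the other 3, where a count of 0 allows up to 0.192, 0.202 and 0.211 CPM against 10.8 CPM in the first. NONRATT012934.2, 938 nt at chr17:33947506-33948443, had 25, 21, 31 and 0 reads. The number of short single-block transcripts at 0 was 0, 1, 2 and 3 by library. The rule fixes the first of these at 0, though without the demand for listing in that library the same 2812 transcripts met it. Its FPKM minimum bounds the other numbers, so they do not show how common absence is.

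Most of the short single-block transcripts stood alone among the listed transcripts. Of the 2812, 429 (15.3%) overlapped another listed transcript and 292 (10.4%) lay inside the span of a spliced one, against 51.7% of spliced NONCODE transcripts that overlapped another. Those that overlapped had a median level of 2.40 FPKM and 29.75 reads, against 3.07 FPKM and 37.25 reads for the others. The shares called were 3.03% against 4.15% between media at 24 h, 4.20% against 7.47% at 48 h, 1.40% against 4.53% between times in normal glucose and 4.43% against 6.04% in high glucose, and these differences were not tested. Reads that overlapping transcripts share could not be divided here, and the sources used here do not say whether the counting used strand. The short single-block transcripts were spread over chromosomes 1 to 20 and X. They made up between 31.9% (chromosome 6) and 45.4% (chromosome 13) of the measured transcripts of a chromosome. None of them lay on the scaffolds KL567974.1 and KL568167.1, which held 1 measured transcript each.

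Many lay near each other. Another short single-block transcript lay within 5 kb of 725 (25.8%) and within 1 kb of 427 (15.2%), while the median distance to the nearest was 89.5 kb. Joined at 5 kb they formed 338 runs of at least 2, of which 297 held 2, 34 held 3, 6 held 4 and 1 held 5. The run of 5 covered 9.14 kb at chr4:78915023-78924165. Its transcripts averaged 11.2, 10.3, 13.5, 10.1 and 3.30 FPKM from left to right, and none of them was called in any comparison. The first 4 of the run thus had levels within a narrow range over 4 libraries.

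Neighbours moved together weakly. In 387 pairs of adjacent transcripts within 5 kb the log2 ratios had the same sign in 56.8% (between media, 24 h), 62.0% (between media, 48 h), 59.2% (between times, normal glucose) and 59.4% (between times, high glucose). In 1893 adjacent pairs over 100 kb apart the shares were 51.8%, 56.5%, 49.8% and 49.5%. Spearman's rho between the 2 of a pair was 0.21, 0.26, 0.29 and 0.21 within 5 kb, and 0.02, -0.02, 0.03 and -0.00 over 100 kb. The pairs share libraries and are not independent. Within 5 kb at least 1 of the 2 was called in 28, 40, 26 and 30 pairs. Both were called in the same direction in 0, 3, 1 and 1 of these, and in opposite directions in 0, 2, 0 and 0. Over 100 kb the pairs with a call numbered 159, 266, 153 and 231, with 1, 5, 1 and 5 in the same direction and 0, 7, 2 and 3 in opposite directions. Shared calls were few at either distance.

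The neighbours of the transcripts with ratios over 8 were looked at next. Of the 67, 11 had another short single-block transcript within 5 kb. Of these neighbours 0 passed the same limits, which 5.95% of the 1126 passed, so a count of 0 in 11 is near that share. In 8 of the 11 the neighbour's highest CPM was under 2 times its lowest. That share was not counted over all short single-block transcripts, so it does not set these neighbours apart. NONRATT030085.2, with 31, 2, 294 and 342 reads and inside the span of a listed spliced transcript, lay 754 nt from NONRATT030084.2, which had 326, 439, 515 and 459 reads. NONRATT012600.2, 1359 nt at chr17:70712376-70713734, had 68, 78, 1 and 70 reads, and its neighbour 66 nt away had 57, 85, 84 and 57. In these 2 pairs a library almost empty for one transcript was well covered a short distance away. Other pairs differed from that. NONRATT020231.2, 1623 nt at chr4:33940220-33941842, had 151, 195, 7 and 176 reads, and its neighbour 257 nt away had 50, 82, 16 and 101, so both were lowest in normal glucose at 48 h. At chr1:199055948-199057741 lay NONRATT003218.2, with 4, 6, 5 and 176 reads, 31 nt from NONRATT003219.2 with 4, 5, 157 and 166. Its highest CPM was 36.8 times its lowest, and only its mean of 47.75 reads kept it below the limit. Both were near silent at 24 h, and they differed in normal glucose at 48 h.

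**Figure D5:**
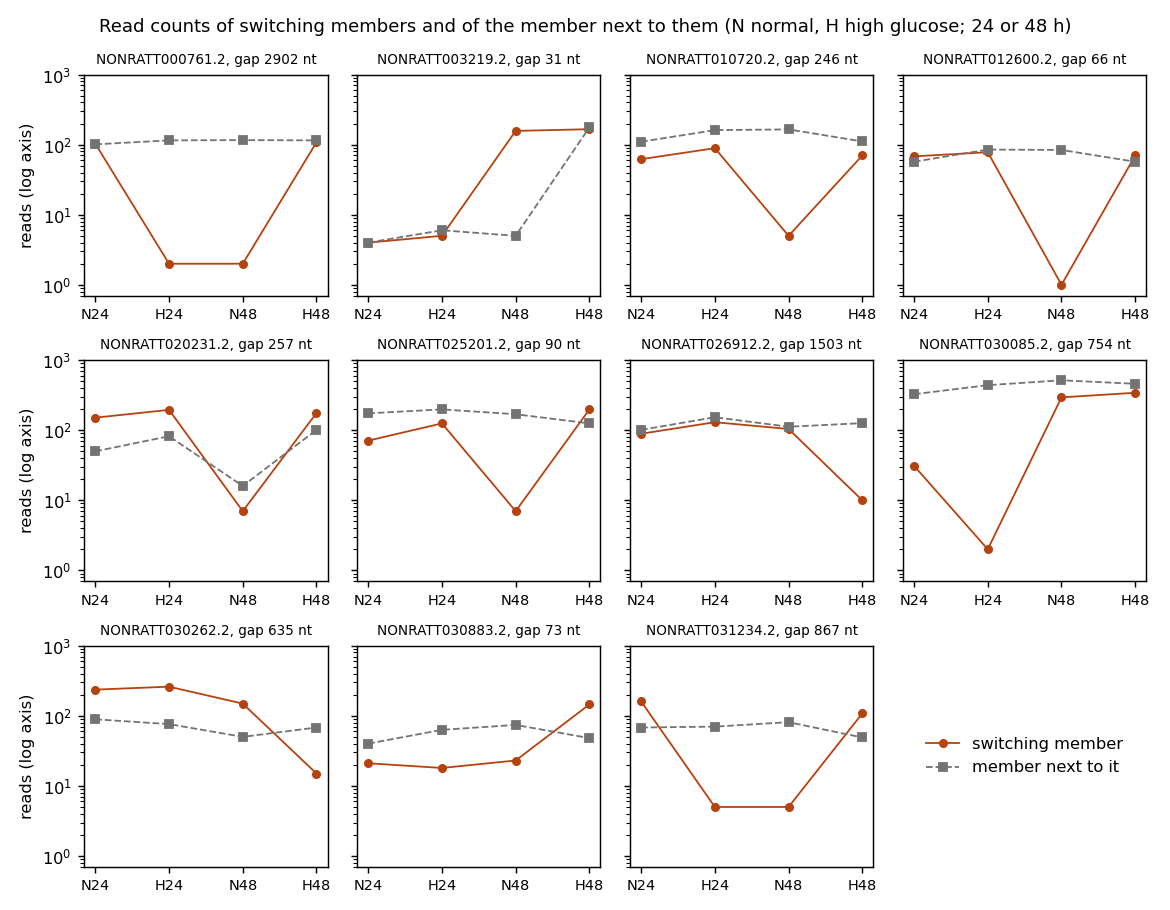
Reads per library (y axis, log scale) in the 4 libraries (x axis, N normal and H high glucose at 24 or 48 h) for the 11 transcripts with ratios over 8 that have a neighbour within 5 kb (solid line, circles) and for that neighbour (dashed line, squares), with the gap between them in the panel title; lines only join points of 1 transcript. In 8 of 11 panels the neighbour's CPM varies by under 2 times, the neighbour of NONRATT020231.2 is lowest in the same library, and the neighbour of NONRATT003219.2 is high in high glucose at 48 h alone.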

How the data were processed

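Total RNA libraries made with a TruSeq Stranded Total RNA kit were sequenced on an Illumina HiSeq, per the labels' protocols. TopHat2 2.1.0 (an aligner), Cufflinks and the build names Rnor_6.0 and rn6 are listed without roles, per the submitters' processing notes. The sources used here do not give the counter, its use of strand or the annotation release. Raw read counts per transcript and FPKM values were deposited by the authors, per the file headers, beside transcript lengths in nt for normal glucose at 24 h. A transcript missing from a library's table was taken as 0.

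From these the total behind each FPKM value was recovered as count divided by length and FPKM (transcripts with at least 20 reads), and CPM values were computed. Single libraries were compared on log2(FPKM + 1), with a call at 2-fold or more where the exact Clopper-Pearson 95% interval of the read ratio excluded 1. Folds quoted are CPM ratios without the pseudocount. Without molecular identifiers, PCR copies count as separate reads, so the intervals cover counting error only. edgeR 4.0.16 (quasi-likelihood, R 4.3.3) was fitted to all 7321 measured transcripts with terms for medium and time, with Benjamini-Hochberg adjustment at 0.05. limma 3.58.1 and DESeq2 1.42.0 were alternatives, beside other scalings, filters and pseudocounts. The interval and the edgeR fit were tested on simulated data. Samples were grouped by their titles.

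Transcripts were named by rule: the 3 most abundant of each length class, the 2 highest and 2 lowest called ratios in each comparison with the highest and lowest of each class, those repeated at both times or in both media, any past the adjusted threshold, those absent from a library, and the edges of the rule. The neighbours of transcripts with ratios over 8 were chosen after their values were seen. Members, limits and lists were chosen with earlier results of these data known. Sequences were not analysed here.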

Additional observations from a re-analysis of the deposited data

Results flagged for a closer look

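Between media, 19 short single-block transcripts were called in one direction at 24 h and in the other at 48 h. The largest of these was NONRATT012360.2, with a log2 ratio of high over normal glucose of 4.07 at 24 h and -3.95 at 48 h, from 2, 264, 222 and 2 reads. NONRATT018206.2 went the opposite way, -3.98 at 24 h and 3.42 at 48 h, from 202, 3, 3 and 162 reads. Between times, 18 were called in one direction in normal glucose and in the other in high glucose, and these 2 transcripts were among them. The difference between the ratios was not tested in any of them, since each ratio rests on 1 library per group.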

How the results depend on the processing

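No paired analysis was possible because each group has 1 library and the labels give no replicate numbers that groups share; leaving out a library ends a ratio of 2 libraries. With a mean count of at least 30 required, the calls numbered 59 and 121 between media at 24 h and 48 h, and 68 and 100 between times in normal and high glucose, since fewer transcripts were tested. A pseudocount of 0.25 gave 254 calls between times in high glucose. The median log2 ratio changed sign at 24 h between media with equal sums over the measured transcripts (0.0022), and between times in high glucose with TMM factors (0.0113) and median-of-ratios size factors (0.0123); all are close to 0. In the test of medium, the count past the adjusted threshold was 0 with TMM factors, with the same sum, without a dispersion trend and with limma, 11 with no FPKM minimum and 6 with DESeq2, and leaving out each library gave 0 to 0. In the test of time it was 11 with no FPKM minimum, 6 with no term for medium, 3 with limma and 11 with DESeq2, and leaving out a library gave 0 to 30 (30 without normal glucose at 48 h, 5 without high glucose at 48 h). With 1 residual degree of freedom neither test separates medium or time from single-library differences. The causes of these changes were not tested. Depth limits the shortest class most, where a mean of 1 FPKM can rest on 3.25 reads.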
